A study of Mus musculus with 9 samples.

Results

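The enzymes of glycolysis, the pentose phosphate pathway, the tricarboxylic acid (TCA) cycle and glutamine and serine metabolism were followed as a list of 54 genes. A member was measured where a probe set carried its symbol alone, which held for 48 of the 54, out of 17731 genes in all. Pc, pyruvate carboxylase, was found under its older symbol Pcx through its gene identifier. Gpi1, Gapdh, Eno1, G6pdx, Rpe and Gls2 had no single-symbol probe set in the table used here, so hexose phosphate isomerisation, the dehydrogenase and the main enolase of lower glycolysis and the entry enzyme of the pentose phosphate pathway were not analysed. Each measured member had 1 probe set, so agreement between probe sets of a gene could not be examined. The names of 4 of these probe sets, for Hk3, Aldoa, Pgk1 and Pgd, end in x_at, the manufacturer's mark for probes that may also bind other transcripts, so these values may include related sequences.

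The cells came from C57BL/6 bone marrow immortalised with HoxA9, a homeobox transcription factor, and every group shared that step. They carried a retroviral vector with an EGFP or GFP marker: the empty vector in CTL, wild-type IDH1 in IDH1wt and mutant IDH1 in IDH1mut. After transplantation into irradiated mice, marrow was taken at 4 weeks and GFP-positive cells were sorted for RNA, with 3 Affymetrix arrays per group. The labels give neither the age of the mice, the species of the IDH1 insert and its mutation, nor whether the arrays of a group came from separate mice or cell clones, so the p-values measure the spread between these samples, which may be technical. Mouse Idh1, the cytosolic isocitrate dehydrogenase, read 10.70, 10.64 and 10.67 (log2) on the CTL arrays, 10.70, 10.45 and 10.61 on the IDH1wt arrays and 10.84, 10.52 and 10.56 on the IDH1mut arrays. These values overlapped in all groups, and since the insert is not described, the probe set checks no label. As markers of the granulocyte lineage, S100a8 from the late neutrophil list and Mpo and Elane from the primary granule list had mean signals at percentiles 100, 99.9 and 98.6. Correlations between arrays of a group were 0.992 to 0.997.

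Glycolysis breaks glucose down to pyruvate in the cytosol. Its flux is set in part at phosphofructokinase, which is activated by fructose 2,6-bisphosphate. The pentose phosphate pathway diverts glucose 6-phosphate: the oxidative branch makes NADPH, which neutrophils use for the oxidative burst and for glutathione, and the non-oxidative branch exchanges ribose phosphates with glycolytic sugars. The TCA cycle oxidises acetyl groups in mitochondria and is fed from glutamine through glutamate and 2-oxoglutarate. IDH1 makes 2-oxoglutarate from isocitrate, and its cancer mutants turn 2-oxoglutarate into 2-hydroxyglutarate. Transcript levels measure neither flux nor metabolites.

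The promoters of 4 members that rose in IDH1mut cells are shown because they include the pentose phosphate genes that moved together. They are the 250 bases before the start site from RefSeq (GRCm38.p6), read 5′ to 3′ on the gene's strand, with capitals marking motif matches. Pgd lies on the minus strand (chr4:149166706-149166955) and has a second listed start whose window held no match. Tkt (chr14:30548881-30549130) and Taldo1 (chr7:141391910-141392159) lie on the plus strand, and Got1 (chr19:43524606-43524855) on the minus strand.
Pgd: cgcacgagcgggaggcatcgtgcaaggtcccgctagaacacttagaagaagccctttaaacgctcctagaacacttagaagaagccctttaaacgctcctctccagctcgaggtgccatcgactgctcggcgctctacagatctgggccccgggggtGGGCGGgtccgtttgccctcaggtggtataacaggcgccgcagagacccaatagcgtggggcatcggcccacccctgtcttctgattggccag
Tkt: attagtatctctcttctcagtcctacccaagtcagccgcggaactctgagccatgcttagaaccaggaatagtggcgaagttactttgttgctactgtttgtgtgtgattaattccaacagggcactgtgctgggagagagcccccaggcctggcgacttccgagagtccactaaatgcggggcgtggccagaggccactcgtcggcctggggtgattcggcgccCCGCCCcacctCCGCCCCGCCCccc
Taldo1: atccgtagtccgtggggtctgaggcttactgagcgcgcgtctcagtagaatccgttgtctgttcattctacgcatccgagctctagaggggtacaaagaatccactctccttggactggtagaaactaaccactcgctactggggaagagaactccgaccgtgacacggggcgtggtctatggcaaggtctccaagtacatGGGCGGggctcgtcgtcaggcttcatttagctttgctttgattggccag
Got1: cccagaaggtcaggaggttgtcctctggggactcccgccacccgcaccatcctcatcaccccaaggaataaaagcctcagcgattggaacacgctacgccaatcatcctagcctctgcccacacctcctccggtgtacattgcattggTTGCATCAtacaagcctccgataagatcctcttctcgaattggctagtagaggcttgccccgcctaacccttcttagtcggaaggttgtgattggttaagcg

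Motifs for 7 kinds of site, chosen after the values were seen, were searched on both strands in 66 promoters of 47 members. Several starts of a gene can overlap, so the windows are not independent. The capitals in Pgd, Tkt and Taldo1 are GC boxes (GGGCGG or its complement), with 1 in Pgd, 3 in Tkt, 2 of which overlap, and 1 in Taldo1. A GC box was in 57.6% of member promoters, in 48.6% of promoters of the measured genes and in 32.7% of all 32851 promoters. The capitals in Got1 are a C/EBP-ATF response element core (TGATGNAA on the other strand), 102 bases before the start, the single match in member promoters (1.52%), with 3.45% in all promoters. The hypoxia response core ACGTG was in 37.9% of member promoters, in 19.6% of those of measured genes and in 16.6% of all; the E-box CACGTG, which contains that core, was in 10.6%, 7.46% and 6.02%. The antioxidant response element core TGACNNNGC (6.06% of member promoters, 10.2% of all), paired C/EBP half-sites TTGCNNAA (12.1% and 9.56%) and the PU.1 core GAGGAA (24.2% and 23.3%) completed the search. These matches describe letters and not binding.

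In IDH1mut against CTL, enzymes moved in both directions at several steps. Pfkfb4, Tkt, Got1, Taldo1, Pgd, Me2 and Pdk3 rose, and Fh1, Psph, Pfkl, Hk1, Tpi1 and Pgls fell. Together these were 13 of 48 members (27.1%), against 20.7% of all 17731 genes, at an adjusted p under 0.05 in limma. Members that rose were 7 of 48, with 10.1% of all genes higher, and those that fell were 6 of 48, with 10.6% of all genes lower. The members had brighter signals than most genes. Among genes with a mean above the median, 13 of 39 members (33.3%) and 35.1% of genes changed, so these shares were close. Signal was not matched beyond that cut. IDH1mut and CTL arrays were fully separated for 27 of 48 members, against 37.8% of all genes. No member changed 2-fold or more, against 2.33% of all genes, and the largest change was 1.83-fold. The median log2 fold change of the members was -0.05 and their median absolute change 0.21, beside -0.04 and 0.17 over all genes. At means above the median the absolute change was 0.23 for members and 0.25 for all genes. The count fell to 6 without CTL replicate 1, where 13.4% of all genes were called, and to 8 without IDH1mut replicate 1 (19.1%).

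**Figure D1:**
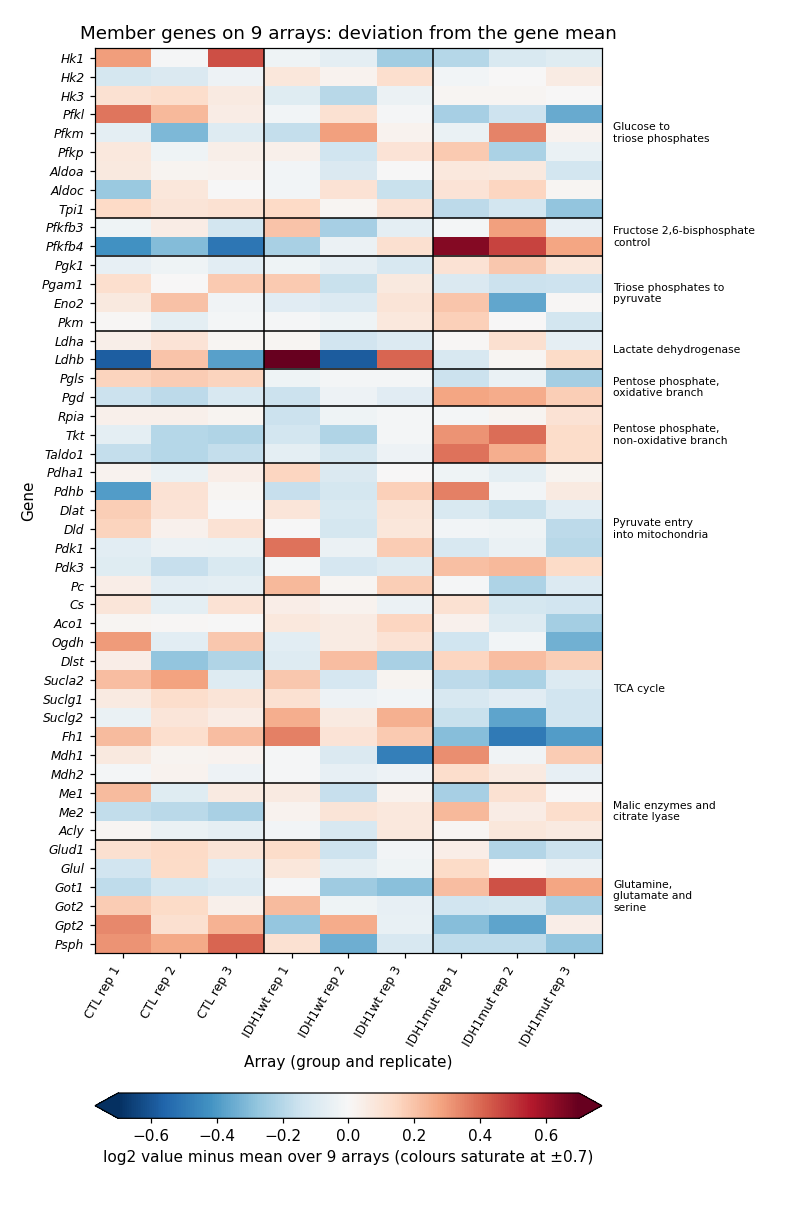
Deviation of each of the 48 measured members (rows, by step of metabolism) on each of the 9 arrays (columns) from that gene's mean over all arrays, in log2 units, with red above and blue below the mean. Pfkfb4, Pgd, Tkt, Taldo1 and Got1 are above their means on every IDH1mut array, Fh1 and Psph are below on every IDH1mut array, and Ldhb varies most within the IDH1wt group (SD 0.75).

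Markers of several marrow cell types differed between the same groups. For scale, 20.7% of all genes changed in IDH1mut against CTL, and 35.1% of those with a mean above the median. The median log2 deviation of 14 late neutrophil genes was -0.35 to -0.13 on CTL arrays, -0.18 to -0.08 on IDH1wt arrays and 0.31 to 0.44 on IDH1mut arrays, and 10 of the 14 rose in IDH1mut against CTL. The primary granule list, of 10 genes expressed earlier in the lineage, holds more than granule proteins. In it are the transcription factors Cebpa and Gfi1, the chaperone Calr, and Nkg7, which is also in the T and NK cell list. For these 10 genes the ranges were 0.24 to 0.38, 0.20 to 0.25 and -0.53 to -0.50, and 10 of 10 fell. For 16 erythroid genes they were -0.57 to -0.47, -1.05 to 0.67 and 0.58 to 0.87, and 12 of 16 rose (6 with an intensity trend and robust variances). Monocyte markers had medians of 0.15 to 0.19, 0.19 to 0.24 and -0.68 to 0.02, and 4 of 9 fell. Those of mast cells, basophils and eosinophils had medians of 0.01 to 0.13, -0.12 to 0.57 and -0.88 to -0.30, and 5 of 11 fell while 1 rose. B cell markers ranged from -0.50 to 0.51, -1.30 to 0.09 and 0.21 to 0.95, and 4 of 11 rose; this became 1 without CTL replicate 1 or CTL replicate 3 and with an intensity trend, and 2 without IDH1mut replicate 3. The T and NK cell (3 of 10 changed, 30%), megakaryocyte and platelet (2 of 8, 25%) and stromal and endothelial (3 of 10, 30%) lists moved in both directions. These shares lay between those of all genes and of the brighter genes. In the T and NK cell list 2 rose, and the 1 that fell was Nkg7, counted in the primary granule list too. The counts of these lists became 1 without CTL replicate 2, IDH1mut replicate 2 or IDH1mut replicate 3 for T and NK cells, 1 without CTL replicate 1 or 3 and 4 without CTL replicate 2 for platelets, and 5 without IDH1mut replicate 1 for stroma. Of 13 cell-cycle genes, 1 rose and 2 fell (23.1%, near the 20.7% of all genes). The count was 1 in all when IDH1mut replicate 3 or either of CTL replicates 1 and 3 was left out. The medians of this list, -0.11 to 0.09, -0.18 to 0.12 and -0.05 to 0.05, overlapped between all groups. The part of these cell types in the results on enzymes was not tested. In a bulk sample, fewer cells of a type and less RNA per cell cannot be told apart.

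Among 9 genes that take glucose to triose phosphates, 3 fell in IDH1mut against CTL and 0 rose. That is 33.3% changed, near the 35.1% of genes with a mean above the median. Pfkl, the liver-type phosphofructokinase, read 7.05, 6.91 and 6.73 on CTL arrays, 6.66, 6.79 and 6.67 on IDH1wt arrays and 6.44, 6.53 and 6.33 on IDH1mut arrays. Every IDH1mut array lay below every array of the other groups. It fell by 0.46 on the log2 scale (SE 0.11, n = 3 against 3; 1.38-fold; adjusted p = 0.0101). Hk1, a hexokinase that traps glucose, read 6.31, 6.01 and 6.47 in CTL, 5.99, 5.95 and 5.78 in IDH1wt and 5.82, 5.91 and 5.94 in IDH1mut. The IDH1wt and IDH1mut arrays overlapped, with a log2 difference between them of -0.02 (95% interval -0.28 to 0.25). It fell by 0.38 (SE 0.12) against CTL, at the edge of the threshold (adjusted p = 0.0479). Tpi1, triose phosphate isomerase, read 10.98, 10.93 and 10.95 in CTL, 10.98, 10.85 and 10.94 in IDH1wt and 10.66, 10.71 and 10.57 in IDH1mut. Its IDH1mut arrays lay below all others. It fell by 0.31 (SE 0.09; adjusted p = 0.0278) against CTL, and the difference from IDH1wt was -0.28 (SE 0.09; adjusted p = 0.0567).

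The other isoforms of these steps did not pass. Hk2 and Hk3, further hexokinases, differed by 0.10 (95% interval -0.08 to 0.28) and -0.09 (-0.27 to 0.10), and Pfkm and Pfkp, the muscle and platelet phosphofructokinases, by 0.27 (-0.04 to 0.58) and -0.06 (-0.31 to 0.20). The aldolases Aldoa and Aldoc, which split fructose 1,6-bisphosphate, passed in no comparison either. The call of Pfkl was lost without CTL replicate 1 (adjusted p = 0.0536). That of Tpi1 was lost when any 1 of the CTL arrays, IDH1mut replicate 1 or IDH1mut replicate 3 was left out (adjusted p up to 0.1). The call of Hk1 was lost without any single array except CTL replicate 2 (up to 0.177), and with the arrays centred on their medians or the IDH1wt arrays kept out of the fit (up to 0.0728). Against IDH1wt, Tpi1 passed among the brighter genes (0.0168), with quantile normalisation repeated (0.0318) and with an intensity trend and robust variances (0.00715).

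Pfkfb4 had the largest change of any member. It encodes a bifunctional kinase and phosphatase that sets fructose 2,6-bisphosphate. Its values were 9.08, 9.20 and 8.99 in CTL, 9.27, 9.46 and 9.61 in IDH1wt and 10.14, 9.97 and 9.78 in IDH1mut. The 3 groups followed each other without overlap. In IDH1mut it rose 1.83-fold against CTL (log2 fold change 0.87 ± 0.12, SE, n = 3 against 3; limma, adjusted p = 6.26e-04) and 1.43-fold against IDH1wt (0.52 ± 0.12; adjusted p = 0.0179). In IDH1wt the difference from CTL was 0.36 ± 0.12 and did not pass (adjusted p = 0.168). The call against CTL held in all 17 alternatives (adjusted p at most 0.00445), while that against IDH1wt was lost without IDH1wt replicate 1, IDH1mut replicate 1 or IDH1mut replicate 2 (up to 0.064). Pfkfb3, its paralog, differed by 0.11 (95% interval -0.18 to 0.40) in IDH1mut against CTL.

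From triose phosphates to pyruvate and lactate, 0 of 6 measured members passed in any of the 3 comparisons in limma; at an unadjusted p under 0.05 there was 1 in IDH1mut against CTL (Pgam1), 0 in IDH1wt against CTL and 1 in IDH1mut against IDH1wt (Pgk1). A fit with an intensity trend and robust variances called Pgk1 against CTL (adjusted p = 0.0423) and against IDH1wt (0.035). In IDH1mut against CTL, Pgk1, phosphoglycerate kinase, differed by 0.17 (95% interval -0.01 to 0.36) and Pgam1, phosphoglycerate mutase, by -0.23 (-0.46 to -0.00). Pkm, which forms pyruvate, differed by 0.04 (-0.17 to 0.25), and Ldha, the main lactate dehydrogenase of proliferating cells, by -0.03 (-0.23 to 0.17). For Pkm and Ldha these intervals exclude changes beyond 0.25 in either direction. Ldhb, the other lactate dehydrogenase, read 5.52, 6.30 and 5.71 in CTL, 6.99, 5.52 and 6.50 in IDH1wt and 5.98, 6.11 and 6.23 in IDH1mut. Its spread within CTL (SD 0.41) and IDH1wt (SD 0.75) left its differences undetermined (0.26, interval -0.41 to 0.94, in IDH1mut against CTL). Eno2, an enolase, had a mean signal at percentile 8.2, near the low end where RMA compresses folds.

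The pentose phosphate pathway had 4 of its 5 measured members changed in IDH1mut against CTL, 3 higher and 1 lower. The 5 have means above the median, where 35.1% of all genes changed. Pgd, 6-phosphogluconate dehydrogenase, which makes NADPH and ribulose 5-phosphate, read 12.12, 12.09 and 12.16 in CTL, 12.12, 12.24 and 12.19 in IDH1wt and 12.55, 12.53 and 12.44 in IDH1mut. Tkt, transketolase, read 6.22, 6.09 and 6.08, then 6.16, 6.08 and 6.27, then 6.60, 6.68 and 6.42 in the same order. Taldo1, transaldolase, read 12.20, 12.17 and 12.21, then 12.30, 12.25 and 12.33, then 12.75, 12.63 and 12.50. For all 3 genes every IDH1mut array lay above every CTL and IDH1wt array. Against CTL the log2 fold changes were 0.39 ± 0.09 for Pgd (1.31-fold; adjusted p = 0.00808), 0.44 ± 0.10 for Tkt (1.35-fold; 0.0108) and 0.43 ± 0.09 for Taldo1 (1.35-fold; 0.00687). Against IDH1wt they were 0.33 ± 0.09 (adjusted p = 0.0277), 0.40 ± 0.10 (0.0259) and 0.33 ± 0.09 (0.0359).

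The oxidative step before Pgd went the other way. Pgls, 6-phosphogluconolactonase, read 9.81, 9.83 and 9.81 in CTL, 9.62, 9.63 and 9.64 in IDH1wt and 9.50, 9.60 and 9.41 in IDH1mut. The groups did not overlap, with IDH1wt in between. Relative to CTL it fell by 0.31 (SE 0.09; adjusted p = 0.0254) in IDH1mut, and its difference in IDH1wt was -0.18 (SE 0.09; adjusted p = 0.309). Rpia, ribose 5-phosphate isomerase, did not pass, with a difference of 0.01 (95% interval -0.18 to 0.20). The calls of Pgd, Tkt and Taldo1 against CTL held in all 17 alternatives, with the highest adjusted p at 0.0354, 0.0457 and 0.0282. That of Pgls was lost without any 1 CTL array, IDH1mut replicate 1 or IDH1mut replicate 3 (up to 0.0796). Against IDH1wt the calls were lost without 5 single arrays for Pgd (CTL replicate 1, IDH1wt replicates 1 and 3, IDH1mut replicates 1 and 2; up to 0.0838), 4 for Tkt (IDH1wt replicates 1 and 2, IDH1mut replicates 1 and 2; up to 0.0962) and 7 for Taldo1 (all but CTL replicate 2 and IDH1mut replicate 3; up to 0.107). All 3 were also lost with the CTL arrays kept out of the fit (up to 0.0839).

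**Figure D2:**
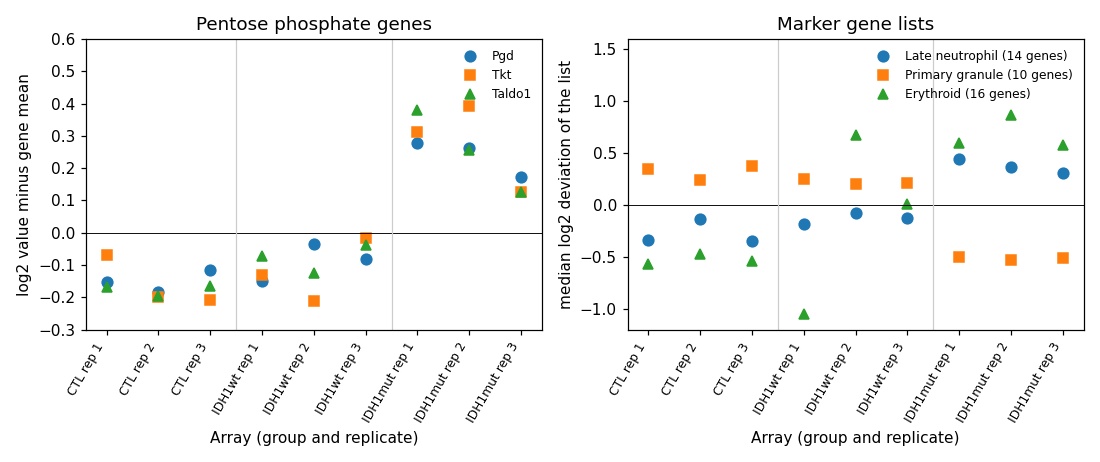
Left, log2 value minus the gene's mean over 9 arrays for Pgd, Tkt and Taldo1 on each array; right, the median of the same deviation over late neutrophil, primary granule and erythroid marker genes. The 3 IDH1mut arrays are the highest for each of these 3 genes. Pgls, which fell, and Rpia, which did not pass, are not shown. On the IDH1mut arrays the late neutrophil median is 0.31 to 0.44, the primary granule median -0.53 to -0.50 and the erythroid median 0.58 to 0.87.

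At the entry of pyruvate into mitochondria, 1 of 7 members changed in IDH1mut against CTL (14.3%, against 20.7% of all genes). Pdk3, a kinase that inhibits pyruvate dehydrogenase, read 8.53, 8.45 and 8.51 in CTL, 8.60, 8.50 and 8.52 in IDH1wt and 8.82, 8.84 and 8.75 in IDH1mut. The IDH1mut arrays lay above all others. It rose by 0.31 ± 0.08 (1.24-fold; adjusted p = 0.0245), and the difference from IDH1wt, 0.26 ± 0.08, did not pass (adjusted p = 0.0652; 0.0185 to 0.0483 with brighter genes, an intensity trend or array weights). The call was lost without any 1 CTL array, IDH1mut replicate 1 or IDH1mut replicate 2 (up to 0.0768). Pdk1, a kinase of the same family, differed by -0.07 (95% interval -0.31 to 0.18), and Pdha1, Pdhb, Dlat and Dld, the subunits of the dehydrogenase complex, and Pc, which makes oxaloacetate from pyruvate, passed in no comparison. Dld had a mean signal at percentile 11.6.

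In the TCA cycle, 1 of 10 members changed in IDH1mut against CTL (10%, against 20.7% of all genes). IDH1mut and CTL arrays were fully separated for 5 of the 10, against 37.8% of all genes. Fh1, fumarate hydratase, which turns fumarate into malate, read 10.51, 10.40 and 10.51 in CTL, 10.64, 10.38 and 10.47 in IDH1wt and 9.99, 9.79 and 9.89 in IDH1mut. CTL and IDH1wt overlapped, and the IDH1mut arrays lay below both. It fell by 0.58 on the log2 scale against CTL (SE 0.10; adjusted p = 0.00198) and by 0.61 against IDH1wt (SE 0.10; 1.52-fold; adjusted p = 0.00285), and both calls held in all 17 alternatives (highest adjusted p 0.012 and 0.0145). Suclg2, a subunit of succinyl-CoA synthetase, read 6.94, 7.07 and 7.04 in CTL, 7.24, 7.05 and 7.23 in IDH1wt and 6.83, 6.61 and 6.85 in IDH1mut. Its IDH1mut arrays were the lowest and it fell by 0.41 (SE 0.10; adjusted p = 0.0215) against IDH1wt, a call lost without IDH1wt replicate 1, IDH1wt replicate 3 or IDH1mut replicate 2 (up to 0.0838), or when the 3 CTL arrays were kept out of the fit (0.0514). Against CTL the difference was -0.25 (SE 0.10; adjusted p = 0.106).

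The remaining cycle members did not pass against CTL. Their log2 differences included -0.30 (95% interval -0.57 to -0.04) for Ogdh and 0.33 (0.05 to 0.61) for Dlst, both of the 2-oxoglutarate dehydrogenase complex, and -0.20 (-0.39 to -0.01) for Suclg1. Cs, citrate synthase, differed by -0.09 (-0.31 to 0.13), and Aco1, the cytosolic aconitase and iron regulatory protein, by -0.10 (-0.31 to 0.10). Mdh2, the mitochondrial malate dehydrogenase, passed in no comparison. Sucla2 and the cytosolic Mdh1 had mean signals at percentiles 9.5 and 17.7. Several lay near the threshold and passed under some alternatives: Dlst (adjusted p = 0.0497), Suclg1 (0.0434) and Suclg2 (0.0462) among the brighter genes, Suclg1 also with an intensity trend and robust variances (0.0493), Ogdh without CTL replicate 2 (0.0437) and Sucla2 without CTL replicate 3 (0.0392).

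Of the enzymes that move carbon between malate, pyruvate and citrate, Me2 changed in IDH1mut against CTL. This mitochondrial malic enzyme turns malate into pyruvate. It read 8.10, 8.09 and 8.05 in CTL, 8.30, 8.37 and 8.35 in IDH1wt and 8.50, 8.33 and 8.40 in IDH1mut. The IDH1wt and IDH1mut arrays overlapped and all lay above CTL. Me2 rose by 0.33 ± 0.09 in IDH1mut (adjusted p = 0.0193) and differed by 0.26 ± 0.09 in IDH1wt, which did not pass (adjusted p = 0.161). IDH1mut and IDH1wt differed by 0.07 (95% interval -0.12 to 0.26). Leaving out IDH1mut replicate 1 or either of CTL replicates 1 and 3 ended the call (up to 0.0662). Acly, which makes cytosolic acetyl-CoA from citrate, differed by 0.08 (-0.11 to 0.27), and Me1, the cytosolic malic enzyme, had a mean signal at percentile 20.1 and did not pass.

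Of 6 genes of glutamine, glutamate and serine metabolism, 1 rose and 1 fell in IDH1mut against CTL (33.3% changed, against 20.7% of all genes and 35.1% of those above the median mean). Got1, the cytosolic aspartate aminotransferase, read 6.44, 6.50 and 6.52 in CTL, 6.61, 6.37 and 6.32 in IDH1wt and 6.83, 7.06 and 6.89 in IDH1mut. CTL and IDH1wt overlapped and IDH1mut lay above both. It rose by 0.44 ± 0.11 against CTL (1.36-fold; adjusted p = 0.0117) and by 0.50 ± 0.11 against IDH1wt (1.41-fold; adjusted p = 0.0104). The call against CTL was lost without CTL replicate 1 (adjusted p = 0.0506), and that against IDH1wt held in all 17 alternatives (at most 0.0465). Got2, its mitochondrial counterpart, differed by -0.28 ± 0.10 (adjusted p = 0.0748) and did not pass, but passed among the brighter genes, with an intensity trend, with array weights and without IDH1wt replicate 1 (0.0305 to 0.0469).

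Psph, phosphoserine phosphatase, the last enzyme of serine synthesis, read 7.74, 7.69 and 7.83 in CTL, 7.53, 7.08 and 7.31 in IDH1wt and 7.24, 7.24 and 7.15 in IDH1mut. The CTL arrays lay above all others, and the IDH1wt and IDH1mut arrays overlapped. It fell by 0.54 (SE 0.12; 1.45-fold; adjusted p = 0.00683) in IDH1mut, a call that held in all 17 alternatives (at most 0.032). The difference in IDH1wt was -0.45 (SE 0.12; adjusted p = 0.0729), and that between IDH1mut and IDH1wt was -0.09 (95% interval -0.35 to 0.16). Gpt2, the mitochondrial alanine aminotransferase, differed by -0.44 (SE 0.15; adjusted p = 0.0574). It passed with the IDH1wt arrays kept out of the fit, with array weights, and without IDH1wt replicate 1, IDH1wt replicate 2 or IDH1mut replicate 3 (0.0131 to 0.0399). Glud1, glutamate dehydrogenase, differed by -0.22 (-0.44 to 0.01) and Glul, glutamine synthetase, by 0.05 (-0.17 to 0.28), and neither passed.

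**Figure D3:**
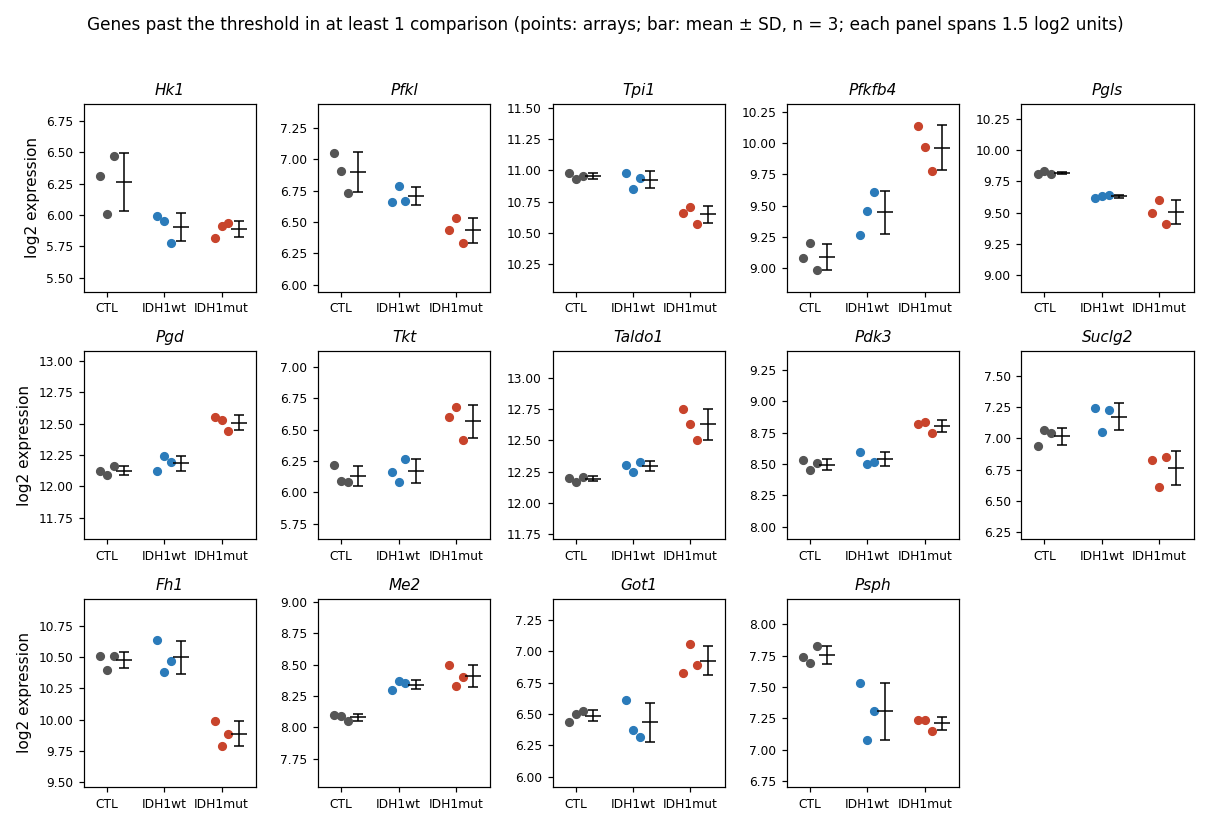
Log2 expression of the 14 members past the threshold in at least 1 comparison; each point is an array, the bar is the group mean ± SD (n = 3), and every panel spans the same log2 range without starting at 0. For Pfkl, Tpi1, Pgd, Tkt, Taldo1, Pdk3, Suclg2, Fh1 and Got1 the IDH1mut arrays stand apart from both other groups, whereas for Hk1, Me2 and Psph the IDH1wt arrays lie beside the IDH1mut arrays.

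In IDH1wt against CTL, 0 of 48 members passed in limma, against 2.33% of all genes, and 5 members and 3017 genes had an unadjusted p under 0.05. Array weights gave 3 (Hk1, Pfkfb4 and Psph), and the brighter genes alone, and a fit with an intensity trend and robust variances, gave Psph only, as did the fit without IDH1wt replicate 1 (adjusted p = 0.0252). The shares of the genes tested that were called in those fits were 6.91%, 6.54%, 4.04% and 3.21%, in that order. The median absolute log2 difference was 0.09 for the members and 0.12 for all genes. For 41 of the 48 the 95% interval of the difference lay within 0.5 log2 units of 0. The largest difference was that of Ldhb at 0.49, with arrays that overlapped. Because IDH1wt and IDH1mut were set against the same 3 CTL arrays, a CTL array that is high or low enters both comparisons.

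In IDH1mut against IDH1wt, Pfkfb4, Got1, Tkt, Pgd and Taldo1 were higher and Fh1 and Suclg2 lower, which is 7 of 48 members (14.6%) against 13.3% of all genes. Among genes with a mean above the median, 7 of 39 members (17.9%) and 22.8% of genes changed. The median absolute difference was 0.13 for the members and 0.15 for all genes. The count fell to 2 without IDH1wt replicate 1 or IDH1mut replicate 2, to 3 without IDH1mut replicate 1, to 4 without IDH1wt replicate 3, and to 3 in a fit on the 6 arrays compared. The shares of all genes called in those fits were 9.13%, 8.62%, 11.4%, 8.32% and 9.37%, in that order. Of the 41 members not called, 35 had an interval within 0.5 log2 units of 0, as did 28 of the 35 not called in IDH1mut against CTL.

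**Figure D4:**
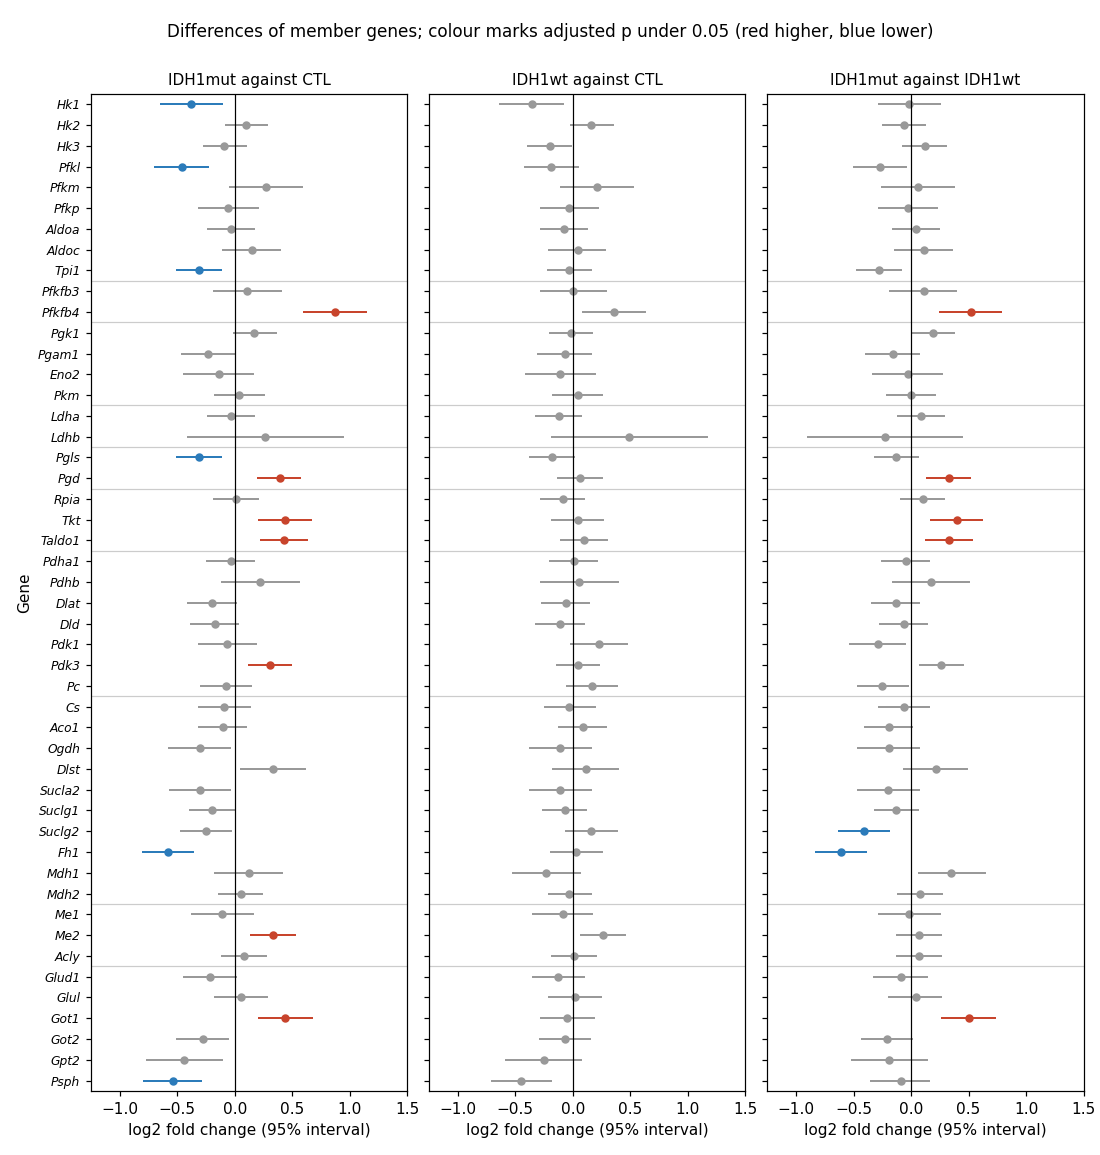
Log2 fold change with its 95% interval for the 48 measured members in each comparison; colour marks an adjusted p under 0.05 (red higher, blue lower). Coloured members number 13 in IDH1mut against CTL, 0 in IDH1wt against CTL and 7 in IDH1mut against IDH1wt, and Pfkfb4 has the largest change at 0.87.

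Further genes of these pathways, a list of 82 measured genes, also moved both ways. Of these, 14 rose and 12 fell in IDH1mut against CTL (31.7%, against 20.7% of all genes). Only 1 rose in IDH1wt against CTL (1.22%, against 2.33%). That count grew to 4 under array weights (3 higher, 1 lower) and to 3, all higher, using robust variances on an intensity trend. It was 2 among the brighter genes alone and 2 without IDH1wt replicate 1. The shares of the genes tested that were called there were 6.91%, 4.04%, 6.54% and 3.21%, in that order. Between IDH1mut and IDH1wt, 7 were higher and 12 lower in IDH1mut (23.2%, against 13.3%). Among genes with a mean above the median the shares were 41.7% of 60 listed genes against 35.1% of all, then 1.67% against 3.55%, and 30% against 22.8%. Adpgk, an ADP-dependent glucokinase, read 7.54, 7.61 and 7.69 in CTL, 7.59, 7.70 and 7.54 in IDH1wt and 8.65, 8.63 and 8.60 in IDH1mut. The IDH1mut arrays stood well above the others, with log2 fold changes of 1.01 ± 0.09 against CTL (adjusted p = 4.23e-05) and 1.02 ± 0.09 against IDH1wt (1.1e-04). Its probe set, like that of Phgdh, also has a name ending in x_at. Idh2, the mitochondrial isocitrate dehydrogenase, read 9.24, 9.25 and 9.28 in CTL, 9.20, 8.90 and 9.09 in IDH1wt and 8.60, 8.57 and 8.60 in IDH1mut. It fell by 0.66 (SE 0.10; adjusted p = 7.27e-04) against CTL and by 0.47 (SE 0.10; 0.00814) against IDH1wt, with IDH1mut below all other arrays. For Idh1 the log2 difference was -0.03 ± 0.11 against CTL and 0.06 ± 0.11 against IDH1wt.

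The other genes with the largest changes against CTL were Pklr, the liver and red cell pyruvate kinase, at 0.74 ± 0.21 (adjusted p = 0.0255), Eno3, the muscle enolase, at 0.74 ± 0.22 (0.0333), Asns, asparagine synthetase, at 0.74 ± 0.14 (0.00291), and Gfpt1, which takes fructose 6-phosphate and glutamine into hexosamine synthesis, at 0.67 ± 0.12 (0.00327). The call of Pklr was lost without CTL replicate 1 or 2 or IDH1mut replicate 1 or 2 (up to 0.0824), and that of Eno3 when IDH1mut replicate 2, IDH1mut replicate 3 or CTL replicate 1 was dropped (up to 0.129). Pklr ranged from 4.63 to 5.61 on the IDH1wt arrays, where the erythroid median ranged from -1.05 to 0.67, and both were lowest on IDH1wt replicate 1 and highest on IDH1wt replicate 2; the part of erythroid cells in Pklr was not tested. Fbp1, fructose bisphosphatase, was the gene called in IDH1wt against CTL (0.76 ± 0.10; adjusted p = 0.00365), with 0.62 ± 0.10 (0.00159) in IDH1mut against the same CTL arrays. Against IDH1wt, Pygl, the liver glycogen phosphorylase, was higher in IDH1mut (0.53 ± 0.09; adjusted p = 0.00261). Lower there were Ppargc1b, a coactivator of mitochondrial genes (-0.73 ± 0.13; 0.00386), Pygb, the brain glycogen phosphorylase (-0.61 ± 0.09; 0.0016), Phgdh, the entry enzyme of serine synthesis (-0.58 ± 0.11; 0.00572), and Cad, which starts pyrimidine synthesis (-0.55 ± 0.09; 0.00326).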

How the data were processed

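RNA from 9 sorted samples, 3 each of CTL, IDH1wt and IDH1mut as grouped by the labels, was hybridised to 1 Affymetrix array each, starting from 3 µg of total RNA per the labels' protocols. The deposited values are log2 expression per probe set (1.72 to 14.17; array medians 4.65 to 4.72). Per the submitters' processing notes they were made with RMA (background correction, quantile normalisation and probe summary), with the version not given in the sources used here. Such values carry no detection call, and the number of arrays limits the precision. Of 20877 probe sets, 17815 carried 1 symbol in the platform annotation, 244 several and 2818 none; only the first kind was used, with the highest-mean probe set per gene (17731 genes).

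The 9 arrays entered 1 linear model of group means (limma 3.58.1, R 4.3.3), whose 3 contrasts were tested two-sided with Benjamini-Hochberg adjustment over all genes at 0.05. The words rose, fell and changed mark genes past it; errors are SE for fold changes and SD for means, and intervals are 95%. The fit was tested on simulated data with independent noise for each gene and array. Variation shared between genes was not simulated. Members passing in any contrast are given by array, the rest by counts or where a step needs them, and of further pathway genes the 6 largest changes per contrast plus Idh1 and Idh2. The members and all lists were chosen with earlier results of these data known. Alternatives were the mean of probe sets, brighter genes only, repeated quantile normalisation, median centring, the 6 arrays compared, array weights, an intensity trend with robust variances, a block for the replicate number, and leaving out each array; the same were added for further pathway genes and marker counts after seeing the data. Promoters came from RefSeq (GRCm38.p6), matched by symbol for 47 of 48 members.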

Additional observations from a re-analysis of the deposited data

How the results depend on the processing

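Of 20 calls of members, 8 held in all 17 alternatives, 12 were lost in at least 1, all 12 of them when a single array was left out, and 0 reversed. The mean of probe sets could hardly change a call, because each member had 1 probe set and kept its values. With 1 array left out, the members called numbered 6 to 14 in IDH1mut against CTL (13 with all arrays), 0 to 1 in IDH1wt against CTL (0) and 2 to 7 in IDH1mut against IDH1wt (7). Of all genes, 13.4% to 21.5%, 0.744% to 3.21% and 8.32% to 12.4% were called in those fits, in the same order. In IDH1wt against CTL the count was 1 with genes above the median mean, 3 with array weights and 1 with robust variances on an intensity trend. The shares of the genes tested were 6.54%, 6.91% and 4.04%. In IDH1mut against IDH1wt the count was 3 with the 6 arrays compared, where 9.37% of all genes were called. The cause of these shifts was not tested, beyond the fewer arrays or genes in the fit. With the replicate number as a block, the counts were 11, 0 and 5 in the order above, without Hk1 and Tpi1 against CTL and without Pgd and Taldo1 against IDH1wt. The shares of all genes called were then 19.1%, 1.77% and 11.5%. Residuals of arrays with the same number in different groups correlated at -0.0857 to 0.0257, and those with different numbers at -0.0751 to 0.0843. Of the 9 arrays, 1 correlated best with its own number. These whole-array values gave no sign of a shared effect of the number. They cannot exclude one on some genes, nor tell whether samples were paired. Signal limits the dim members: 5 had a mean below percentile 25 of all genes.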

Other observations

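The further pathway genes in IDH1mut against CTL are given here by list. Of 17 genes of glutamine, glutamate and serine, 4 rose and 4 fell. That is 47.1% changed, against 20.7% of all genes and 35.1% of those with a mean above the median. Asns (log2 fold change 0.74 ± 0.14; limma, adjusted p = 0.00291), Gfpt1 (0.67 ± 0.12; 0.00327), Slc38a2, a neutral amino acid transporter (0.56 ± 0.10; 0.00259), and Slc7a11, the cystine transporter (0.52 ± 0.11; 0.00533), rose. The signal of Slc7a11 was low, with a mean at percentile 22.8 of all genes. Aldh18a1, the entry enzyme of proline synthesis (-0.66 ± 0.13; 0.00468), Shmt1 (-0.53 ± 0.15; 0.0258) and Shmt2 (-0.29 ± 0.09; 0.042), the serine hydroxymethyltransferases, and Cad (-0.44 ± 0.09; 0.00637) fell. The rest of the list did not pass, among them the transporters Slc38a1 (-0.26), Slc7a5 (-0.24) and Slc1a5 (-0.00) and the serine synthesis genes Phgdh (-0.33; adjusted p = 0.0523) and Psat1 (-0.23; 0.0961). The call of Shmt1 was lost without any 1 CTL array, IDH1mut replicate 2 or IDH1mut replicate 3 (up to 0.0921), and that of Shmt2, whose probe set name ends in x_at, without any single array except IDH1wt replicates 1 and 3 (up to 0.128).

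Of 23 genes of glycolysis and its side branches, 6 rose and 2 fell. That is 34.8% changed, against 20.7% of all genes and 35.1% of those with a mean above the median. Besides Adpgk, Eno3, Pklr and Fbp1, these were Pygl (0.56 ± 0.09; adjusted p = 0.00103) and Gbe1, the glycogen branching enzyme (0.41 ± 0.09; 0.00947), which rose, and Pygb (-0.66 ± 0.09; 5.46e-04) and Pgm3, a phosphoglucomutase family member of hexosamine synthesis (-0.63 ± 0.13; 0.00601), which fell. Gys1, glycogen synthase, differed by -0.39 ± 0.13 and did not pass (adjusted p = 0.0614). The call of Gbe1 was lost without CTL replicate 1 (0.053). Of 7 pentose phosphate and ribose genes, 1 fell (14.3%): H6pd, the pentose phosphate dehydrogenase of the endoplasmic reticulum (-0.58 ± 0.10; 0.00155). The 6 sugar and lactate transport genes had 1 that rose (16.7%), Slc16a3 (0.54 ± 0.12, adjusted p = 0.00879). Among 18 genes of pyruvate dehydrogenase, the TCA cycle and its refilling, 0 rose and 2 fell (11.1%), Idh2 among them. The shares of these 3 lists lay below the 20.7% of all genes.

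Of 11 upstream regulators measured, 3 rose and 3 fell. That is 54.5% changed, against 20.7% of all genes and 35.1% of those with a mean above the median. Arrdc4 (0.63 ± 0.11; adjusted p = 0.00295) and Txnip (0.38 ± 0.09; 0.012), arrestin-domain genes that respond to glucose and restrain its uptake, rose, as did Nfe2l2, the regulator of antioxidant genes (0.42 ± 0.12; 0.0258). Myc (-0.47 ± 0.10; 0.00613), Srebf1, a regulator of lipid synthesis (-0.43 ± 0.09; 0.00476), and Ppargc1b (-0.60 ± 0.13; 0.00666) fell. The call of Nfe2l2 was lost without any 1 CTL array, IDH1mut replicate 1 or IDH1mut replicate 3 (up to 0.0955). Values beyond the 6 largest changes were chosen for naming after they were seen. Several marker lists differed between the same groups, and their part in these values was not tested.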
